A study of Mus musculus with 16 samples.

Results

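Ctsl, Ctss, Ctsh, Lgmn, Prss16 and Psmb11 code for proteases that cut proteins into the peptides shown to developing T cells in the thymus. They were followed through the chromatin mark H3K4me2 (dimethylation of histone H3 at lysine 4) in 4 sorted populations of mouse medullary thymic epithelial cells (mTEC). A merged table of 29472 peaks assigns each peak to the gene whose annotated start lies nearest, and every peak annotated to 1 of these 6 genes was taken. That gave 11 peaks, 4 for Prss16, 2 each for Ctsl and Ctsh, and 1 each for Ctss, Lgmn and Psmb11, among 15739 genes with a peak. Values are in tags per 10000000 tags of the library, added up over the peaks of a gene to give its level.

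The cells came from thymi of C57BL/6 mice, with no genetic change or drug named in the labels. Every population was sorted without CD45 and with Epcam on the surface, and each had a gate of its own. mTEC-I had low MHC class II and carried Itgb4, and mTEC-II had high MHC class II. mTEC-III carried Ly6D, and mTEC-IV had low MHC class II, lacked Itgb4 and carried L1cam. Each population has 2 H3K4me2 libraries, and 8 whole-cell extracts are not analysed here. The labels call the sorted cells enriched for a population and do not say whether replicates stem from different mice, so the p-values speak only to the spread among these libraries, and that spread may be technical.

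Libraries held 1702103.5 to 15412132.5 tags, and mTEC-I replicate 2 was the shallowest, with 1 tag worth 5.88. Over all tested peaks, log2 differences between replicates had an SD of 0.835 for mTEC-I, beside 0.264 to 0.384 for the rest. Of 8 medullary epithelial markers, 7 had a peak, with summed levels of 3705 to 4792 over the libraries, and Ccl21a had none. That sum hides opposite directions. By the limma test described below, mTEC-IV had 4 of the 7 higher and 2 lower than mTEC-I (35.7% of all genes called). Krt5 averaged 411 in mTEC-I and 29.6 in mTEC-IV, and Krt14 285 and 48.5. Cldn3 averaged 131 in mTEC-I and 271 in mTEC-IV, and Epcam 836 and 1116. Ptprc, the gene for CD45, averaged 32.0 to 43.9 in mTEC-I to mTEC-III and 267 in mTEC-IV, although every gate left out CD45-positive cells. A mark on chromatin is not a measure of RNA or protein.

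Antigen-presenting cells cut proteins along separate routes. In endosomes and lysosomes, cathepsins, legumain and the thymus-specific serine protease cut the antigens and the invariant chain that govern which peptides MHC class II molecules carry. In the cytosol, the proteasome makes peptides for MHC class I, and the subunit encoded by Psmb11 defines the thymoproteasome, which is known from cortical thymic epithelium and the positive selection of CD8 T cells. Cathepsin L and the serine protease Prss16 are likewise known from cortical epithelium, where they serve the selection of CD4 T cells, while cathepsin S is the main invariant chain protease of dendritic cells and B cells. H3K4me2 marks promoters and enhancers.

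Promoter sequences are shown for the 3 genes whose single peak covers the annotated start site and whose RefSeq entry (GRCm38.p6) begins at the gene's start. Each is the 250 bases before that start, 5′ to 3′ on the gene's strand. Capitals mark matches on either strand to the Foxn1 core GACGC, to the E-box CACGTG that Tfeb and its relatives recognise, to the core of the interferon-stimulated response element (GAAA, any 2 bases, GAAA), to the so-called GC box GGGCGG, to the box named for its letters CCAAT, or to the start-site motif TATAAA.
Psmb11: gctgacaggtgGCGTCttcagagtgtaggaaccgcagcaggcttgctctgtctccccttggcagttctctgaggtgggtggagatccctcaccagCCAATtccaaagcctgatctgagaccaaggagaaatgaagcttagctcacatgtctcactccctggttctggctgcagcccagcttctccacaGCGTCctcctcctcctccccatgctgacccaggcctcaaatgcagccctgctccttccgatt
Ctss: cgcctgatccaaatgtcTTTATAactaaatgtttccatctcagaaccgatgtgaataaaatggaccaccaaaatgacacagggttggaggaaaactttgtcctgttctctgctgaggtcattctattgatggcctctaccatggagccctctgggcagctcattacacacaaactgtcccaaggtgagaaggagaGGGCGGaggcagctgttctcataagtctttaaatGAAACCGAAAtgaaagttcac
Lgmn: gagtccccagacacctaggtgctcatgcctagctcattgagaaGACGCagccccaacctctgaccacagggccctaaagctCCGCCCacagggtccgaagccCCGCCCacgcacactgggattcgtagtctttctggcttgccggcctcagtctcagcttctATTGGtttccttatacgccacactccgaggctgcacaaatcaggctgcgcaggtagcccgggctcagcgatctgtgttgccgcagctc
The Psmb11 window lies at chr14:54625060-54625309, that of Ctss at chr3:95526536-95526785 and that of Lgmn at chr12:102439729-102439978, the last on the minus strand. Psmb11 holds 2 copies of the Foxn1 core on the opposite strand, 239 to 235 and 62 to 58 bases before the start, and 1 CCAAT match. Ctss holds GAAACCGAAA 21 to 12 bases before the start, which fits the interferon response core, besides 1 GC box and, on the opposite strand, 1 TATAAA match. Lgmn holds 1 Foxn1 core, 2 GC boxes and 1 CCAAT match, the last 3 on the opposite strand. No match overlaps another. Among all 32851 promoter windows of that length, 22.6% hold the Foxn1 core, 2.98% the interferon response core, 32.7% the GC box, 33.8% CCAAT, 12.4% the TATAAA motif and 6.02% the E-box, so a match is a description of the letters and not a binding site. RefSeq entries matched 4 of the 6 genes. That of Ctsl does not begin at the gene's start and is not shown, and Ctsh and Prss16 are named only.

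The genes differed widely in the amount of mark. Summed levels averaged over the 8 libraries put Prss16 above 99.2% of genes with a peak, Ctsl above 84.6%, Ctsh above 59.8%, Lgmn above 25.1%, Ctss above 14.4% and Psmb11 above 2.41%. Per kilobase of peak the order was Prss16 (59.4 tags per 10000000), Lgmn (56.2), Ctsl (50.3), Ctsh (33.5), Ctss (32.3) and Psmb11 (20.7). Prss16, whose peaks span 15603 bp in all, thus stood close to Lgmn and Ctsl once length was counted, and Psmb11 stayed lowest. These are levels set side by side, with no test between genes.

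Ctsl, Prss16 and Psmb11 changed among the populations and the other genes did not pass. An F test over the 4 populations (limma on log2(level + 1), fitted on all genes, Benjamini-Hochberg adjusted p under 0.05) called 3 of the 6 genes, while 54.2% of all tested genes were called. For single peaks it called 6 of 11, against 58.2% of all tested peaks. Both counts are near the share over all features, so nothing is read from them about the 6 genes as a list. The called peaks were 3 of Prss16 and 1 each of Ctsl, Ctsh and Psmb11. Sorted pools cannot tell fewer marked cells from less mark per cell.

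**Figure D1:**
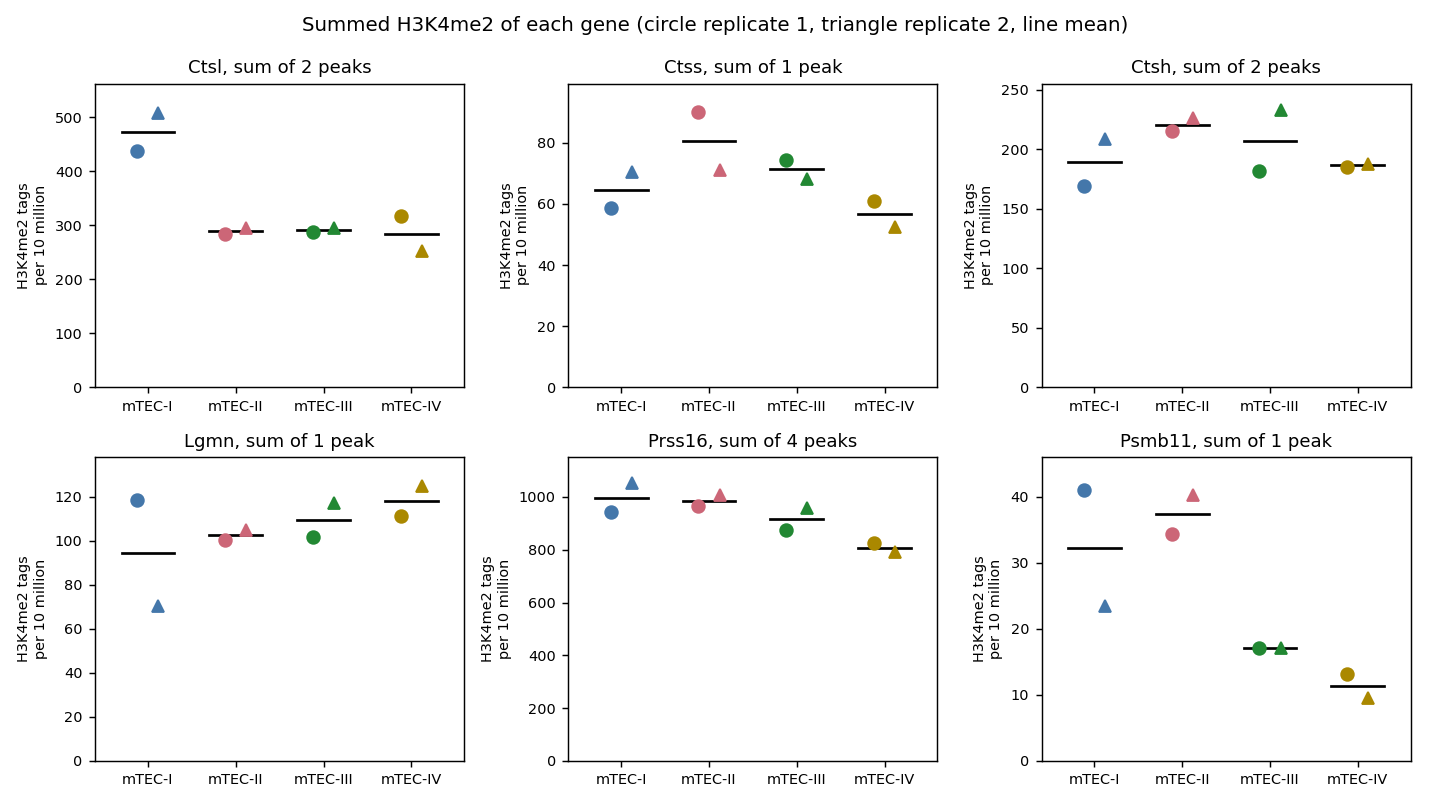
Summed H3K4me2 of each of the 6 genes in tags per 10000000 (vertical axis, from 0) in the 4 populations (horizontal axis), with a circle for replicate 1, a triangle for replicate 2 and a line for the mean. Ctsl stands apart in mTEC-I, at 437 and 508 against 253 to 317 elsewhere, and Psmb11 is at 9.56 to 17.1 in mTEC-III and mTEC-IV against 23.5 to 41.0 in the other populations.

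Ctsl, which encodes cathepsin L, a lysosomal cysteine endopeptidase, carried most H3K4me2 in mTEC-I. Its summed level was 437 and 508 (mTEC-I), 284 and 294 (mTEC-II), 287 and 294 (mTEC-III) and 317 and 253 (mTEC-IV). Both mTEC-I libraries lay above the other 6, which overlapped one another. The mean of mTEC-I was 473 ± 50.2 (SD, n = 2), and those of the other populations were 285 to 291. Against mTEC-I the log2 difference was -0.70 ± 0.11 (SE) in mTEC-II, -0.70 ± 0.11 in mTEC-III and -0.73 ± 0.11 in mTEC-IV (limma adjusted p = 3.74e-04, 2.46e-04 and 1.06e-04). Leaving out any library, or any other setting tried, ended none of these calls.

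Of the 2 Ctsl peaks, the one over its start site and first intron was called. That peak, at chr13:64468129-64472982 (mm9, 4854 bp), is centred 1273 bp downstream of the start. It stood at 358 and 420 (mTEC-I), 226 and 222 (mTEC-II), 227 and 229 (mTEC-III) and 221 and 185 (mTEC-IV). No library of mTEC-II, mTEC-III or mTEC-IV reached the mTEC-I range, and the log2 differences were -0.79, -0.76 and -0.94 (SE 0.12 each, limma adjusted p = 7.34e-04, 5.77e-04 and 7.74e-05). A second, intergenic peak at chr13:64444010-64445799 (mm9), centred 26924 bp downstream, ranged from 58.1 to 95.7 over the libraries and was not called (F test adjusted p = 0.219). There too both mTEC-I libraries (78.9 and 88.1) lay above those of mTEC-II and mTEC-III, with log2 differences of -0.36 and -0.41 (SE 0.21 each). mTEC-IV, at 95.7 and 68.1, overlapped mTEC-I. The second peak made up 17.3% of the Ctsl sum at its lowest, in mTEC-I replicate 2, and 30.2% at its highest, in mTEC-IV replicate 1.

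**Figure D2:**
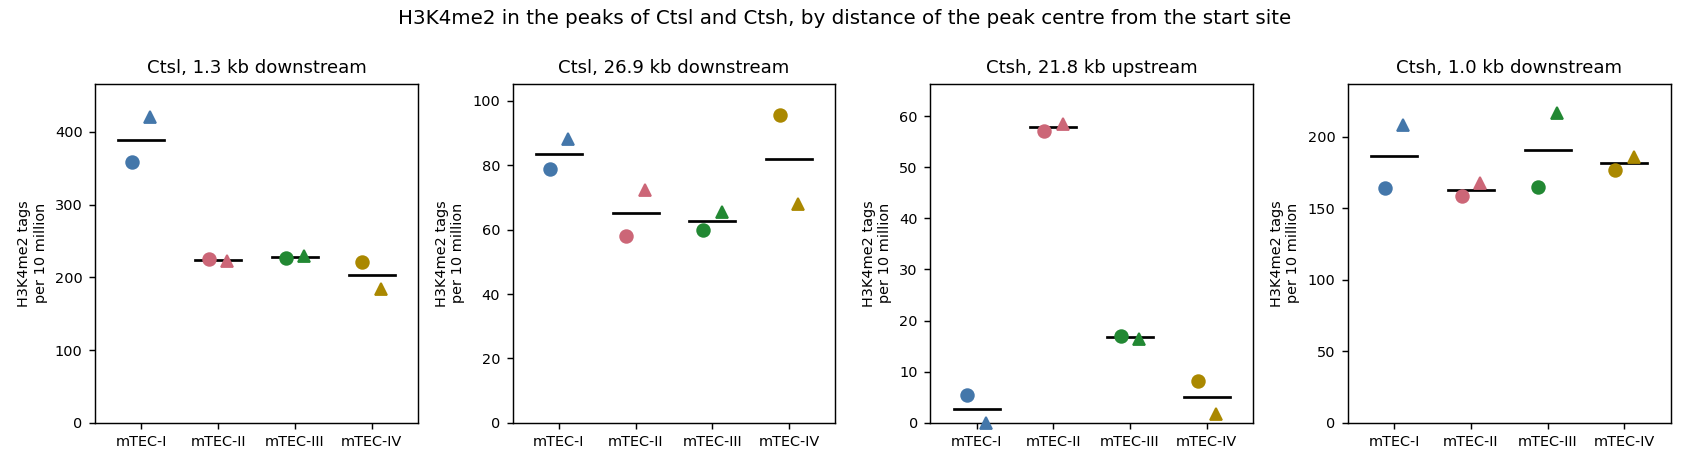
H3K4me2 in tags per 10000000 (vertical axes, from 0, scaled per panel) in both peaks of Ctsl and both peaks of Ctsh, by population, with circles for replicate 1, triangles for replicate 2 and lines for means. The Ctsl peak 1273 bp downstream of the start is high in mTEC-I, and the Ctsh peak 21768 bp upstream is at 57.1 and 58.5 in mTEC-II and at most 17.0 elsewhere.

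Ctss encodes cathepsin S, an endopeptidase that trims the invariant chain. Its promoter peak, at chr3:95329665-95331780 (mm9) and centred 14 bp from the start, held 58.8 and 70.5 (mTEC-I), 90.2 and 71.1 (mTEC-II), 74.4 and 68.3 (mTEC-III) and 61.0 and 52.6 (mTEC-IV). The populations overlapped in part, with mTEC-II replicate 1 highest and mTEC-IV replicate 2 lowest, and both mTEC-IV libraries lay below all those of mTEC-II and mTEC-III. The F test did not call it (adjusted p = 0.219). mTEC-IV against mTEC-II gave the widest gap, a log2 difference of -0.49 ± 0.21 (SE, limma adjusted p = 0.106). That pair passed with libraries scaled to equal totals in peaks (limma adjusted p = 0.0400), with array weights (0.0134), with edgeR (0.00213), and without mTEC-I replicate 1 (0.0296) or replicate 2 (0.0319). edgeR also called Ctss over the 4 populations (adjusted p = 0.00638).

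For Ctsh, whose product cathepsin H is chiefly an aminopeptidase, the sum was not called (F test adjusted p = 0.356). It was 169 and 209 (mTEC-I), 215 and 226 (mTEC-II), 182 and 233 (mTEC-III) and 185 and 188 (mTEC-IV). Both mTEC-II libraries lay above those of mTEC-I and mTEC-IV, and mTEC-III overlapped every other population. mTEC-II passed against mTEC-I with edgeR (adjusted p = 0.0129) and without mTEC-I replicate 2 (log2 difference 0.38). mTEC-IV passed as lower than mTEC-II with equal totals in peaks (limma adjusted p = 0.0451), array weights (0.0421) and edgeR (0.00499). Over the 4 populations edgeR also called Ctsh (adjusted p = 0.00379). Its larger peak, over the start and first intron at chr9:89948126-89952079 (mm9, centre 997 bp downstream), ranged from 158 to 217 and was not called either (F test adjusted p = 0.584). At that peak the log2 difference was -0.18 ± 0.15 (SE) for mTEC-II against mTEC-I and 0.15 ± 0.15 for mTEC-IV against mTEC-II. Both signs are opposite to those of the sum, and neither pair was called.

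A small peak far upstream of Ctsh behaved otherwise. Centred 21768 bp before the start, at chr9:89926319-89928355 (mm9), it is intergenic, and the file's detailed annotation places it in an ORR1B2 element, an LTR retrotransposon of the MaLR family. It held 57.1 and 58.5 (mTEC-II), 17.0 and 16.5 (mTEC-III), 8.25 and 1.79 (mTEC-IV) and 5.42 and 0 (mTEC-I). Both mTEC-II libraries lay above all others, both mTEC-III libraries came next, and those of mTEC-I and mTEC-IV overlapped. Since 0 tags in mTEC-I replicate 2 still leave room for a level of 17.6 (3 tags), that library alone cannot be told from mTEC-III.

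The F test called this Ctsh upstream peak (limma adjusted p = 0.00272), as it did without any 1 library and under the other settings tried. In the peak lists the authors deposited per population, this peak stands in that of mTEC-II alone, over the same interval. It thus came to be tested through the population where it is highest. Its p-values, and their hold over the settings, are no independent support for a higher level in mTEC-II. mTEC-II exceeded mTEC-I by a log2 difference of 4.54 ± 0.83 (SE, limma adjusted p = 0.00257). Over the alternatives the size ran from 3.12, with a pseudocount of 5, to 5.88, without mTEC-I replicate 1, and every one was called. mTEC-IV against mTEC-II gave -3.53 ± 0.83 (limma adjusted p = 0.00693), a call that ended without mTEC-II replicate 1 (0.0642), mTEC-II replicate 2 (0.0659) or mTEC-IV replicate 2 (0.101).

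The call for mTEC-III against mTEC-I at the Ctsh upstream peak was frailer, at a log2 difference of 2.81 ± 0.83 (limma adjusted p = 0.0232). It ended without mTEC-II replicate 1 (0.0534), mTEC-II replicate 2 (0.0537), mTEC-III replicate 1 (0.131) or mTEC-III replicate 2 (0.118), and with cyclic loess (0.0586) or DESeq2 (0.167). The difference was 4.15 without mTEC-I replicate 1 and 1.47 without mTEC-I replicate 2. mTEC-III against mTEC-II was not called (-1.73 ± 0.83, limma adjusted p = 0.167). That pair passed under 6 of 17 alternatives, namely a pseudocount of 5 (0.0142), array weights (0.0100), edgeR (1.43e-10), DESeq2 (0.00507) and leaving out either mTEC-I library. mTEC-IV against mTEC-III was not called either (-1.81 ± 0.83, limma adjusted p = 0.113). It passed under 7 of 17, namely a pseudocount of 5 (0.0275), cyclic loess (0.00165), array weights (0.0102), edgeR (0.00351), DESeq2 (0.0486) and leaving out either mTEC-I library. mTEC-IV against mTEC-I passed under 1, leaving out mTEC-I replicate 1 (log2 difference 2.34). The Ctsh upstream peak was 25.9% to 26.5% of the Ctsh sum in mTEC-II and at most 9.37% in every other library.

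Lgmn encodes legumain, an asparaginyl endopeptidase of the lysosome. Its promoter peak, at chr12:103677023-103678908 (mm9) and centred 58 bp before the start, held 118 and 70.5 (mTEC-I), 100.2 and 105 (mTEC-II), 102 and 117 (mTEC-III) and 111 and 125 (mTEC-IV). The mTEC-I replicates spanned most of the range of all 8 libraries. The F test did not call Lgmn (limma adjusted p = 0.447), and the 6 pairwise log2 differences were 0.09 to 0.36 with an SE of 0.21 each. Without mTEC-I replicate 1, the higher of that pair, the F test passed (0.00467) with log2 differences of 0.53 to 0.73 against the shallow mTEC-I replicate 2 alone.

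Prss16 encodes the thymus-specific serine protease, an endosomal peptidase of family S28. Its summed level was 943 and 1052 (mTEC-I), 967 and 1006 (mTEC-II), 876 and 958 (mTEC-III) and 824 and 791 (mTEC-IV). Both mTEC-IV libraries lay below the other 6, while mTEC-I and mTEC-II overlapped. The F test called the gene (limma adjusted p = 0.00701), with a log2 difference in mTEC-IV of -0.30 ± 0.072 (SE) against mTEC-I and -0.29 ± 0.072 against mTEC-II (limma adjusted p = 0.00363 and 0.00700). Without mTEC-IV replicate 2 the adjusted p was 0.0901 for the F test, 0.0502 against mTEC-I and 0.0850 against mTEC-II, and without mTEC-II replicate 2 it was 0.0961 for that last pair. Against mTEC-III the difference of -0.18 ± 0.072 was not called (0.0646) but passed under 8 of 18 alternatives (adjusted p 0.00328 to 0.325 over all 18), among them leaving out mTEC-I replicate 1 (0.0183), mTEC-I replicate 2 (0.0185) or mTEC-III replicate 1 (0.0450). Without mTEC-I replicate 1, Prss16 also passed for mTEC-III against mTEC-I (-0.20, 0.0364).

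Single peaks of Prss16 moved in different directions under that small change of the sum. The peak 14019 bp downstream of the start, at chr13:22085388-22089794 (mm9) in intergenic sequence, was higher in mTEC-II and mTEC-III. It held 154 and 129 (mTEC-I), 244 and 261 (mTEC-II), 222 and 240 (mTEC-III) and 139 and 125 (mTEC-IV). No mTEC-II or mTEC-III library fell within the range of mTEC-I and mTEC-IV, which overlapped each other. Against mTEC-I the log2 difference was 0.83 ± 0.13 (SE) in mTEC-II and 0.71 ± 0.13 in mTEC-III (limma adjusted p = 8.47e-04 and 0.00153). In mTEC-IV it was -0.93 ± 0.13 against mTEC-II and -0.80 ± 0.13 against mTEC-III (limma adjusted p = 2.53e-04 and 6.01e-04). These 4 calls and the F test (1.47e-04) held under each of the 17 alternatives run on peaks.

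**Figure D3:**
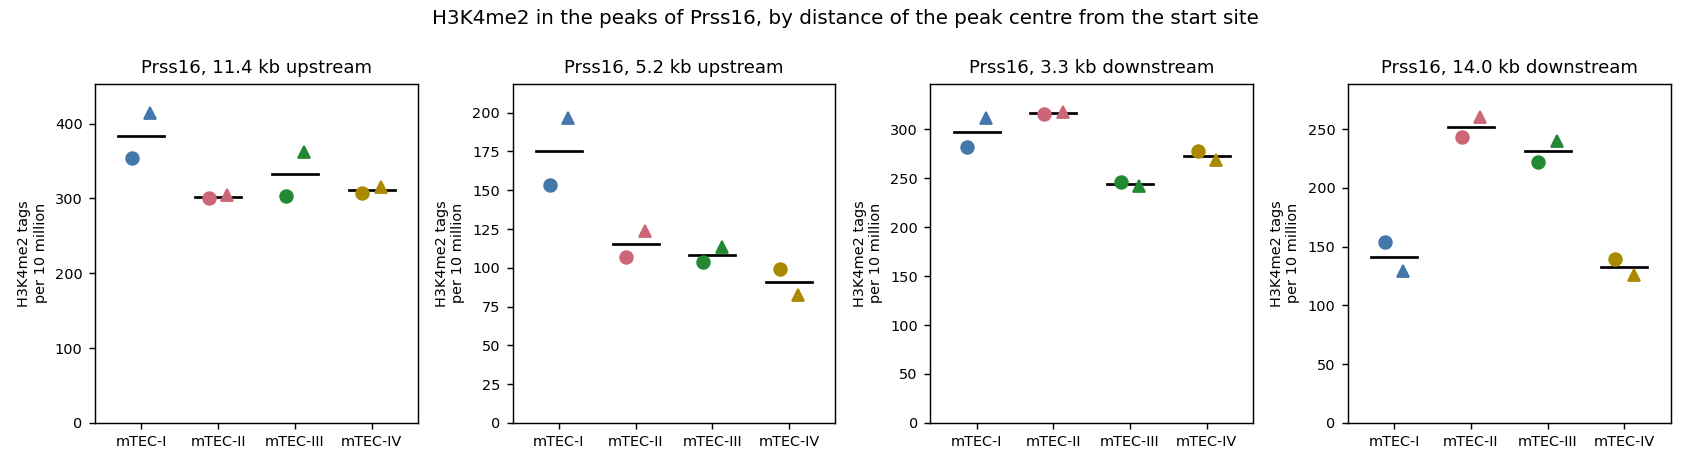
H3K4me2 in tags per 10000000 (vertical axes, from 0, scaled per panel) in the 4 peaks of Prss16, ordered from upstream to downstream of the start site, by population, with circles for replicate 1, triangles for replicate 2 and lines for means. The peak 5246 bp upstream is at 153 and 197 in mTEC-I and 82.4 to 124 elsewhere, while the peak 14019 bp downstream is at 222 to 261 in mTEC-II and mTEC-III and 125 to 154 in mTEC-I and mTEC-IV.

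Closest to the Prss16 start, a peak over intron 7 at chr13:22096024-22100674 (mm9, centre 3261 bp downstream) held 282 and 311 (mTEC-I), 316 and 317 (mTEC-II), 247 and 242 (mTEC-III) and 278 and 268 (mTEC-IV). The mTEC-III pair was lowest and no 2 populations overlapped. mTEC-III differed from mTEC-II by -0.37 ± 0.094 (SE) log2 units (limma adjusted p = 0.0195), and the F test gave 0.0223. Both calls ended without mTEC-II replicate 1, mTEC-II replicate 2, mTEC-III replicate 1 or mTEC-III replicate 2, at adjusted p of 0.0670 to 0.103 for the F test and 0.0829 to 0.154 for the pair, and DESeq2 ended the F test call (0.0520). mTEC-III was also below mTEC-I, at -0.28 ± 0.094 (limma adjusted p = 0.0418), a call that 12 of 17 alternatives ended, 7 of them by leaving out 1 of the libraries other than mTEC-I replicate 1 (adjusted p 0.0634 to 0.144).

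Upstream of Prss16 a peak was highest in mTEC-I, unlike the downstream peak, while mTEC-IV was low at both. This upstream peak, chosen for the contrast after its values were seen, is centred 5246 bp before the start at chr13:22105598-22108115 (mm9). It held 153 and 197 (mTEC-I), 107 and 124 (mTEC-II), 103 and 114 (mTEC-III) and 99.0 and 82.4 (mTEC-IV), so that mTEC-I lay above all other libraries. Against mTEC-I the log2 differences were -0.59, -0.67 and -0.94 (SE 0.17 each, limma adjusted p = 0.0245, 0.0101 and 8.78e-04). The first call ended without mTEC-I replicate 2 (0.0823), mTEC-II replicate 1 (0.198) or mTEC-II replicate 2 (0.0795), and with cyclic loess (0.0668), array weights (0.0517) or DESeq2 (0.153). The second ended without mTEC-III replicate 1 (0.0851) and with DESeq2 (0.0632). The mTEC-IV call and the F test (0.00328) held under each alternative.

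The most upstream Prss16 peak, centred 11401 bp before the start, at chr13:22110998-22115024 (mm9), had the highest mean of the 11 peaks per kilobase (82.6) and did not pass the F test (limma adjusted p = 0.0639). Without mTEC-I replicate 1 (0.00625), mTEC-III replicate 1 (0.0455) or mTEC-III replicate 2 (0.0467) it did, and without mTEC-I replicate 1 it was also lower in mTEC-III than in mTEC-I (-0.32, 0.0233). Its pairwise calls below mTEC-I, for mTEC-II (-0.34 ± 0.11 SE, 0.0399) and mTEC-IV (-0.30 ± 0.11, 0.0462), ended under 10 and 8 of 17 alternatives, among them leaving out mTEC-I replicate 2 (0.136 and 0.198), either mTEC-II library (0.0776 to 0.189) or either mTEC-IV library (0.0642 to 0.180). Within each library, the ratio of the peak 14019 bp downstream to the peak 5246 bp upstream was 1.01 and 0.657 (mTEC-I), 2.28 and 2.11 (mTEC-II), 2.146 and 2.11 (mTEC-III) and 1.41 and 1.52 (mTEC-IV). That ratio is free of library scaling and sets mTEC-II with mTEC-III, apart from mTEC-IV and, lowest, mTEC-I. Both peaks were picked with their values known, so it is given with no test.

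Psmb11, the catalytic subunit gene of the thymoproteasome, had least mark of the 6 genes and fell in mTEC-IV. Its single peak covers the start and the only exon at chr14:55243739-55244923 (mm9, centre 184 bp downstream). It held 41.0 and 23.5 (mTEC-I), 34.4 and 40.4 (mTEC-II), 17.0 and 17.1 (mTEC-III) and 13.2 and 9.56 (mTEC-IV). All libraries of mTEC-I and mTEC-II lay above those of mTEC-III, which lay above those of mTEC-IV. The level in mTEC-I replicate 2 rests on 4 tags, whose exact 95% Poisson interval (counting error only) runs from 6.40 to 60.2 and takes in every other library.

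The Psmb11 peak, too, stands in the authors' deposited list of mTEC-II alone, over the same interval. It thus came to be tested through the population where its mean is highest. The F test and the p-values against mTEC-II are no independent support for a higher level there. The log2 difference of Psmb11 in mTEC-IV was -1.39 ± 0.39 (SE) against mTEC-I and -1.64 ± 0.39 against mTEC-II (limma adjusted p = 0.0109 and 0.00494). Set as means, that is 11.4 ± 2.57 (SD, n = 2) in mTEC-IV against 32.3 ± 12.4 in mTEC-I and 37.4 ± 4.22 in mTEC-II. Without mTEC-IV replicate 2 the adjusted p for Psmb11 was 0.0979 and 0.0637 for those pairs, and without mTEC-II replicate 2 it was 0.0560 for the F test (0.00700 with all libraries) and 0.0840 for the pair with mTEC-II. mTEC-III against mTEC-II, at -1.084 ± 0.39, came just short of the threshold (0.0590), and passed under 7 of 18 alternatives, among them edgeR and leaving out either mTEC-I library (0.00568 and 0.00491). mTEC-III against mTEC-I (-0.83 ± 0.39, 0.124) passed only without mTEC-I replicate 2 (-1.22, 0.00946) and with edgeR (0.0159) among the 18 alternatives. mTEC-IV against mTEC-III (-0.56 ± 0.39, 0.302) passed only with cyclic loess (0.0433).

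**Figure D4:**
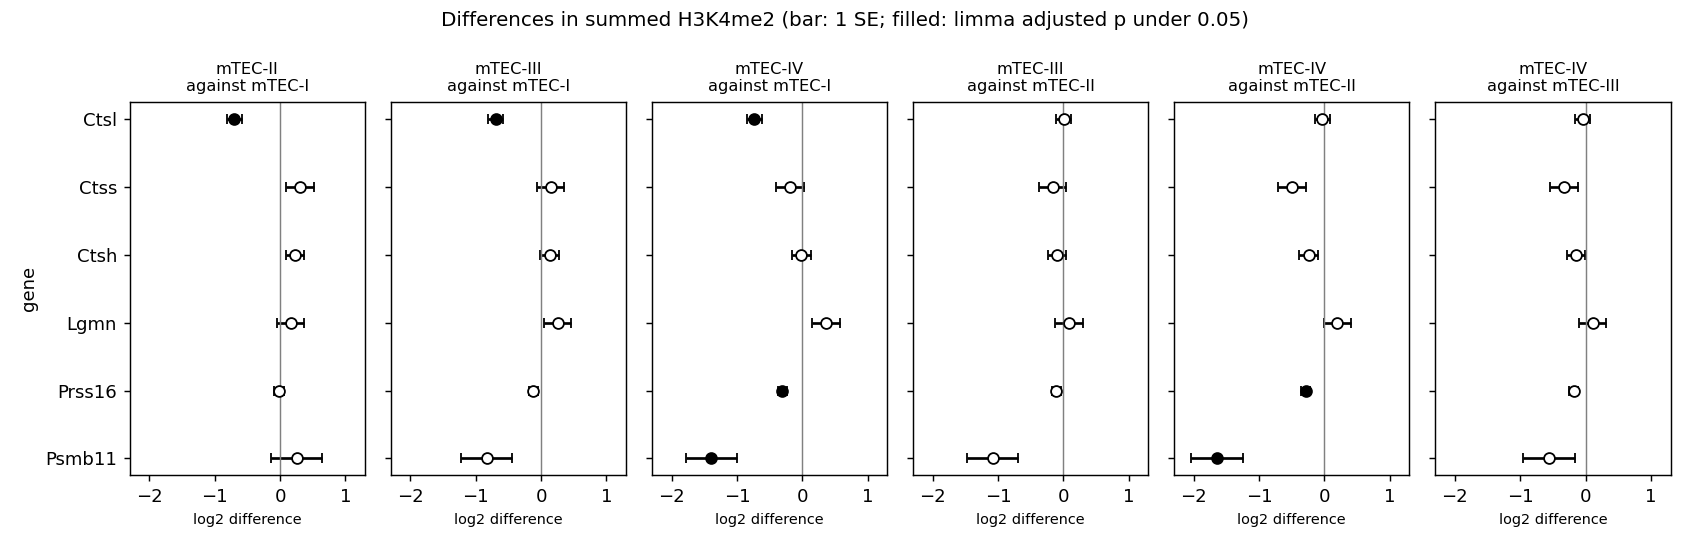
Log2 differences in summed H3K4me2 (horizontal axis, log2(level + 1) scale) for the 6 genes (rows) in the 6 pairs of populations (panels), with bars of 1 SE and filled points where limma's adjusted p is under 0.05. Ctsl is filled and left of 0 in the 3 panels against mTEC-I, at -0.70 to -0.73, and Prss16 and Psmb11 are filled and left of 0 in mTEC-IV against mTEC-I and against mTEC-II.

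Counted by pair, the genes called all lay below the population they were compared with. mTEC-II against mTEC-I called 1 gene (25.4% of all genes called), mTEC-III against mTEC-I 1 (31.4%), mTEC-IV against mTEC-I 3 (35.7%) and mTEC-IV against mTEC-II 2 (25.9%). In mTEC-III against mTEC-II (22.3%) and mTEC-IV against mTEC-III (33.5%) limma called 0, with 1 gene at an unadjusted p under 0.05 in each, while edgeR called 2 and 1, and DESeq2 0 in both. Beside those shares, counts out of 6 genes are too small to set the list apart, and nothing is read from them. The median log2 difference of the 6 genes was 0.20 for mTEC-II against mTEC-I, 0.00 for mTEC-III against mTEC-I and -0.24 for mTEC-IV against mTEC-I, beside -0.09, -0.01 and -0.02 for all genes. It was -0.10 for mTEC-III against mTEC-II, -0.27 for mTEC-IV against mTEC-II and -0.16 for mTEC-IV against mTEC-III, beside 0.06, 0.08 and 0.01. The shares over all genes are themselves unsteady: with 1 library left out, the number of genes called went from 3991 to between 1697 and 6465 for mTEC-II against mTEC-I, and from 3509 to between 1359 and 5966 for mTEC-III against mTEC-II, lowest without mTEC-II replicate 1 and highest without mTEC-I replicate 1 in both. Without mTEC-IV replicate 2, 1 gene was left for mTEC-IV against mTEC-I and 0 for mTEC-IV against mTEC-II, which also went to 0 without mTEC-II replicate 2. Leaving out a library also added genes: without mTEC-I replicate 1 there were 2, 3, 1 and 1 for mTEC-II and mTEC-III against mTEC-I, mTEC-III against mTEC-II and mTEC-IV against mTEC-III, without mTEC-I replicate 2 there were 2, 2, 1 and 1, and without mTEC-III replicate 1 the last pair had 1.

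At the level of single peaks, 5 of 11 were called in mTEC-II against mTEC-I (25.3% of all peaks), with 2 higher in mTEC-II, the Ctsh upstream peak and the downstream Prss16 peak. mTEC-III against mTEC-I called 5 (30.8%), with the same 2 peaks higher in mTEC-III. mTEC-IV against mTEC-I called 4 (40.6%), all lower in mTEC-IV. mTEC-IV against mTEC-II called 3 (30.1%), mTEC-IV against mTEC-III 1 (35.3%) and mTEC-III against mTEC-II 1 (17.6%), all lower in the first-named population. Of the 11 peaks, 4 belong to Prss16 and share 1 locus, so they are not independent, and no test was made of these counts against the background. Comparisons with mTEC-I share its libraries.

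The authors' deposited peak lists, 1 per population with both replicates combined, held 4 of the 11 peaks in mTEC-I, 11 in mTEC-II, 9 in mTEC-III and 9 in mTEC-IV. The lists differ in length (7036, 23949, 19321 and 22757 peaks) and in the lowest level they admit (142.7 tags per 10000000 in mTEC-I and 33.4 to 41.8 in the others), so absence from a list is not absence of signal. In the mTEC-I list stood the start-site peaks of Ctsl and Ctsh, and the Prss16 peaks 11401 bp upstream and 3261 bp downstream. The Ctsh upstream peak and the Psmb11 peak were in the mTEC-II list alone, with the authors' fold over control of 9.60 and 11.8 in the authors' deposited table. There the authors' fold at the Prss16 peak 14019 bp downstream was 77.8 in mTEC-II, 11.6 in mTEC-III and 24.4 in mTEC-IV. The authors' own signal at that peak was 247.1, 217.7 and 103.1 tags per 10000000 in the same order. Fold, which also depends on the control, and signal thus rank mTEC-III and mTEC-IV in opposite ways.

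Genes near these loci had peaks of their own. Psmb5, the standard proteasome subunit gene whose product Psmb11 replaces in the thymoproteasome, has a promoter peak 5965 bp from that of Psmb11. It averaged 130 in mTEC-I, 98.0 in mTEC-II, 94.5 in mTEC-III and 116 in mTEC-IV and was not called (F test adjusted p = 0.0825), and no test compared these neighbours. Next to the most upstream Prss16 peak, 2447 bp away, an intergenic peak given to the histone gene Hist1h2ah averaged 258, 264, 230.2 and 202 in mTEC-I to mTEC-IV. Peaks were assigned by nearest start site, so a distal peak may belong to a neighbour. Restricting each gene to peaks within 20 kb of its start, which drops the distal peaks of Ctsl and Ctsh, changed no call on the 6 genes. It did turn the sign of Ctsh differences that were not called. These went from 0.23 to -0.18 for mTEC-II against mTEC-I and from -0.24 to 0.15 for mTEC-IV against mTEC-II.

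Over the 8 libraries, the genes closest in pattern, among 12082 with a mean level of at least 100, were Mrps14 (Pearson r = 0.985) and Lamc1 (0.982) for Ctsl. For Prss16 they were Anapc13 (0.986) and C1d (0.986), and for Psmb11 Gpr27 (0.970) and Mef2c (0.966). Mrps14 stood at 149 and 164 in mTEC-I and 102 to 112 elsewhere, much as Ctsl did. Gpr27 ran from 237 and 214 in mTEC-I to 167 and 145 in mTEC-IV, a shallower fall than that of Psmb11. For the genes that were not called, the closest were 2310043L19Rik (0.924) and Nxpe3 (0.912) for Ctss, Pcdhgc5 (0.943) and Epha2 (0.930) for Ctsh, and Rbm26 (0.977) and Zfp961 (0.971) for Lgmn. Such correlations, picked as the highest of many over 8 libraries that share depth and scaling, describe likeness only.

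Other lysosomal cathepsin genes included some that were highest in mTEC-IV. Of 10 on the list, 8 had a peak (Ctsk and Ctsw had none) and 5 were called by the F test (54.2% of all genes), with 3 higher and 1 lower in mTEC-IV than in mTEC-I (35.7% of all genes called), counts near those shares. Ctso, a cysteine cathepsin, averaged 731 ± 49.1 (SD, n = 2) in mTEC-IV against 201 to 269 in the other populations (F test, limma adjusted p = 5.34e-08). Ctsc, which encodes the dipeptidyl peptidase that activates granule proteases, averaged 656 ± 6.48 in mTEC-IV against 305 to 355 (7.87e-07). Ctsz, a carboxypeptidase, was highest in mTEC-II, at 176 ± 9.21 against 81.8 ± 24.3 in mTEC-I (log2 difference 1.13 ± 0.19 SE, limma adjusted p = 3.9e-04). Ctsb, Ctse and Ctsf were not called with all libraries. Leaving out mTEC-I replicate 1 raised the count of this list and also the count over all genes.

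Among cathepsin inhibitors and partners, 5 of 6 genes with a peak were called (Cst7 had none), beside 54.2% of all genes, and 4 were lower in mTEC-IV than in mTEC-III, where 33.5% of all genes were called. Cd74 encodes the invariant chain, the substrate of cathepsins L and S. It averaged 432 ± 62.4 (SD, n = 2) in mTEC-I, 356 ± 26.3 in mTEC-II, 328 ± 49.5 in mTEC-III and 164 ± 20.8 in mTEC-IV (F test, limma adjusted p = 2.09e-06). Csta1, a cysteine protease inhibitor of the stefin family, averaged 40.8 ± 0.601 in mTEC-III and 26.4 ± 0.0919 in mTEC-I (F test, limma adjusted p = 6.59e-05). In mTEC-II and mTEC-IV it averaged 4.29 ± 0.827 and 3.44 ± 0.198. Csta1 rests on few tags: 3.30 and 3.58 in mTEC-IV are 3 tags each, and in mTEC-I replicate 2, at 26.4, 1 tag is worth 5.88. Such small SDs of 2 libraries are no measure of counting error. Cst6, a secreted cystatin, averaged 138 ± 16.5 in mTEC-III against 68.9 to 93.5 (0.00104). Ifi30, the lysosomal thiol reductase, was not called (0.433). Both relatives of Prss16 in family S28 were called, Prcp being highest in mTEC-IV at 580 ± 9.33 against 331 to 436 and Dpp7 in mTEC-III at 118 ± 3.30 against 68.6 to 94.7. Not both calls held without either mTEC-III library, where fewer genes were called over the whole table.

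Among proteasome genes, the catalytic subunit genes other than Psmb11 did not move together. Of the standard and immunoproteasome catalytic subunits 2 of 6 were called, beside 54.2% of all genes. Psmb9, an interferon-inducible subunit gene, averaged 7.23 ± 2.45 (SD, n = 2) in mTEC-IV against 20.9 to 36.3 in the other populations (F test, limma adjusted p = 0.00331), and Psmb8, another, 198 against 216 to 264 (0.0381). Psmb5, Psmb6, Psmb7 and Psmb10 were not called. The count of 2 of 6 moved whichever library was left out, as did the count over all genes tested.

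Of the other core and activator genes 2 of 13 with a peak were called, beside 54.2% of all genes (Psma2, Psma4 and Psmb3 had none). Pomp, the proteasome assembly chaperone gene, averaged 304 ± 0.799 (SD, n = 2) in mTEC-IV against 169 to 189 (F test, limma adjusted p = 1.7e-04), and Psma1, a core subunit gene, 325 ± 27.6 against 243 to 260.2 (0.0151). Those not called were Psma3, Psma5, Psma6, Psma7, Psmb1, Psmb2, Psmb4 and Psme1 to Psme4. Leaving out mTEC-IV replicate 2 or either mTEC-I library moved the count, as it did the count over all genes. With peaks within 20 kb alone the count was 0 at the limma F test.

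Of 9 regulators linked to these genes 5 were called, close to the 54.2% of all genes, and 4 were lower in mTEC-IV than in mTEC-I, where 35.7% of all genes were called. Foxn1, the transcription factor on which thymic epithelium and Psmb11 expression depend, averaged 458 ± 3.599 (SD, n = 2) in mTEC-I, 608 ± 1.99 in mTEC-II, 441 ± 39.6 in mTEC-III and 180.0 ± 7.32 in mTEC-IV (F test, limma adjusted p = 4.42e-09). Ciita, the master regulator of MHC class II genes, was likewise highest in mTEC-II, at 523 ± 5.50, and lowest in mTEC-IV, at 155 ± 10.3 (1.23e-07). Tfe3, Mitf, Irf1 and Irf8 were not called. The count of regulators called was lower without mTEC-IV replicate 1, as was the count over all genes.

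Markers of cortical thymic epithelium were read beside Psmb11 and Prss16. All 10 on the list had a peak and 9 were called by the F test (54.2% of all genes), with 6 lower and 0 higher in mTEC-IV than in mTEC-I (35.7% of all genes called in either direction) and 7 lower and 0 higher in mTEC-III than in mTEC-II (22.3%), while mTEC-IV against mTEC-III had 1 lower and 3 higher (33.5%). Their summed level was 4627 to 4986 in mTEC-I, 4397 to 4412 in mTEC-II, 3276 to 3579 in mTEC-III and 3521 to 3577 in mTEC-IV. Foxn1 is on that list too, and no defining marker was without a peak. The part of these markers in the lower Psmb11 and Prss16 levels was not tested.

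Markers of dendritic cells and macrophages, which use Ctss, had a peak for 8 of 12 genes (Lyz2, Adgre1, Fcer1g and Tyrobp had none). They summed to 453 to 494 in mTEC-I, 544 to 551 in mTEC-II, 580 to 596 in mTEC-III and 708 to 711 in mTEC-IV, where Ptprc alone made 267. The list did not move together. Itgax, Itgam and Csf1r were lowest in mTEC-IV, at 10.4, 14.4 and 18.0. Of the 8, limma called 2 higher and 3 lower in mTEC-IV than in mTEC-III (33.5% of all genes called). Ctss averaged 56.8 in mTEC-IV and 64.7 to 80.6 elsewhere. The 3 B cell markers with a peak summed to 61.7 to 72.7 in mTEC-I, 221 to 250 in mTEC-II, 131 to 144 in mTEC-III and 351 to 383 in mTEC-IV, and all 3 were called higher in mTEC-IV than in mTEC-I and than in mTEC-III. Thymocyte markers had a peak for 2 of 8 (Cd3e, Cd3g, Cd4, Cd8a, Rag1 and Lck had none), with sums of 70.5 to 158 over the libraries. The pair went opposite ways: Themis averaged 12.2 in mTEC-I and 128 in mTEC-IV, and Cd2 59.4 and 22.4. Fibroblast markers, 4 of 6 with a peak (Col1a2 and Col3a1 had none), summed to 480 to 608 in mTEC-I and 198 to 416 elsewhere. Col1a1, Pdgfra and Dcn were highest in mTEC-I, while Pdgfrb averaged 127 in mTEC-IV against 15.1 to 36.3 elsewhere. Endothelial markers, 5 of 5 with a peak, summed to 861 to 877 in mTEC-IV and 293 to 470 elsewhere. Cdh5, Tek and Emcn were highest in mTEC-IV and Kdr in mTEC-I, while Pecam1 was lowest in mTEC-IV, at 59.7. The part of such cells in the levels of the 6 genes was not tested.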

How the data were processed

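H3K4me2 was measured by ChIP-seq, with a protocol developed from iChIP per the labels, in 8 libraries. The tools bcl2fastq 2.15.0.4 and Picard 1.108 and the build mm9 are named per the submitters' processing notes. No source used here gives the aligner or the treatment of duplicates. The authors deposited a merged table of normalized signal, in tags per 10000000 tags of each library, annotated with HOMER per the file headers. Their peak lists give each peak's signal, its fold over a control and its p-value, all the authors' own values.

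The header totals turned every value into a multiple of 0.5 tags, within 0.1 tags, for 100% of the values in each library. Values of a gene's peaks were summed. The 2 mitochondrial peaks were left out, and a feature was tested where 2 or more libraries reached 10 tags per 10000000, leaving 29469 peaks, 11 of them those described, and 15738 genes, all 6 included. limma 3.58.1 (R 4.3.3) was fitted to log2(value + 1) with a variance trend, 4 residual degrees of freedom and the 4 populations as groups, and p-values were adjusted over the whole table. A fold change on that scale understates the change of low features. Alternatives were a pseudocount of 5, no filter, 3 other scalings, array weights, a replicate block, leaving out each library, peaks within 20 kb, and edgeR 4.0.16 and DESeq2 1.42.0 on tags rounded to whole numbers. Intervals and floors cover counting error only, since tags lack molecular identifiers and may be copies of 1 molecule. The statistics were tested on simulated data in which all genes and libraries had the same spread beyond counting error. Unequal spread of that kind among populations was not tried.

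The 6 genes and all lists were chosen with earlier results of these data known. All 6 genes are named with each library's value. Full values are given for the peak nearest to each start and the peak of smallest F test p, and for others where stated. From each pathway list at most the 3 genes of smallest F test p are given with values, and from the closest patterns the 2 highest correlations. Some results on list genes are not reported here. Gene names are those of the file.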

Additional observations from a re-analysis of the deposited data

How the results depend on the processing

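No call on the 6 genes or their 11 peaks changed direction under any alternative. The F test called 5 genes with edgeR against 3. With 1 library left out its count moved both up and down, as did the count over all genes. For mTEC-II against mTEC-I the count of 1 gene became 1 to 2 with a library left out and 2 with edgeR, and for mTEC-III against mTEC-I it became 1 to 3 and 2. For mTEC-IV against mTEC-I the 3 genes became 1 to 4 with a library left out. mTEC-III against mTEC-II went from 0 to 1 gene with a pseudocount of 5, equal totals in peaks, RLE size factors or array weights, to 2 with edgeR, and to 0 to 1 with a library left out. mTEC-IV against mTEC-II went from 2 to 4 genes with equal totals, array weights or edgeR, and to 0 to 3 with a library left out. mTEC-IV against mTEC-III went from 0 to 1 gene with equal totals, RLE size factors, array weights or edgeR, to 2 with cyclic loess, and to 0 to 1 with a library left out. The cause of these changes was not tested. Libraries with the same replicate number did not deviate together (correlations of deviations from the population means -0.01 to 0.04), so the numbers were not taken as pairs. With the replicate number as a block, 3 genes and 7 peaks passed the F test, and of 119 single results 1 call was lost and 1 gained, a block that rests on a shared number only. Equal totals moved the median log2 difference of all genes for mTEC-IV against mTEC-II from 0.08 to -0.06 and the share of called genes that were higher from 63.5% to 43.0%, while Prss16 and Psmb11 stayed lower in mTEC-IV under each scaling. That share also went from 47.0% to 59.2% for mTEC-II against mTEC-I (61.6% with cyclic loess), from 57.4% to 45.6% for mTEC-IV against mTEC-I, from 47.9% to 37.4% for mTEC-III against mTEC-II, and from 61.9% to 48.4% for mTEC-IV against mTEC-III, and cyclic loess gave 51.3% for mTEC-IV against mTEC-II. Over all genes the F test called 8528 with limma, 10168 with edgeR and 6691 with DESeq2. With 1 library left out, limma called 3222 to 6820 genes for mTEC-III against mTEC-I, 3800 to 7489 for mTEC-IV against mTEC-I, 2385 to 5776 for mTEC-IV against mTEC-II and 3251 to 7132 for mTEC-IV against mTEC-III. By pair, array weights and edgeR called 5964 and 6271 genes for mTEC-III against mTEC-II (3509 with limma) and 6675 and 6430 for mTEC-IV against mTEC-II (4069), and DESeq2 called 1987 for mTEC-II against mTEC-I (3991) and 3040 for mTEC-III against mTEC-I (4946). An authors' fold of at least 8 left 4, 10, 9 and 8 of the 11 peaks in the authors' lists of mTEC-I to mTEC-IV, and a stricter overlap with the listed interval changed no count. Depth limits the low peaks most: 1 tag in mTEC-I replicate 2 is worth 5.88, and with 2 libraries per population a difference that was not called is not shown to be absent.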
